A study of Mus musculus with 16 samples.

Results

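Kidneys that lacked Ezh2 in their nephron progenitors and Ezh1 in every cell were compared with kidneys that lacked Ezh2 alone, to ask what complete Ezh1 loss adds. The 8 arrays were chosen by their titles and genotype labels, 4 of double-knockout kidneys (Ezh2-KO with homozygous Ezh1-KO) and 4 of Ezh2-KO kidneys (Ezh2-KO with wild-type Ezh1), out of 16 in the series. In both groups Ezh2 was conditionally and homozygously deleted in Six2-positive cells, a deletion that the nephron cells descending from them inherit, whereas the Ezh1 deletion of the double knockout was in the germline. All RNA came from whole kidneys of C57BL/6 mouse embryos at embryonic day 17.5. Another 4 arrays carried Ezh2-KO kidneys with 1 Ezh1 allele lost (Ezh1-het), and 4 carried control kidneys. Cy5 marked the RNA of the sample and Cy3 the RNA of control 1 on every array, with no dye swap, and a level below is log2(Cy5/Cy3), in which 0 means the level of control 1. The labels call the 4 arrays of a genotype biological replicates and do not say whether the kidneys of one embryo or several were used.

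Ezh1 and Ezh2 are the alternative catalytic subunits of Polycomb repressive complex 2 (PRC2), which methylates histone H3 at lysine 27 and keeps developmental genes silent in lineages where they are not used. Ezh2 is the main enzyme in dividing cells and Ezh1 is the form that is more prominent in cells that have left the cell cycle. In the fetal kidney, Six2-positive progenitors renew themselves and give rise to the epithelium of the nephron from podocyte to distal tubule.

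Known PRC2 targets often have promoters rich in the dinucleotide CpG. The promoters of 3 genes that rose and 2 that fell are shown to let their sequence be read beside the values that follow. Each spans 250 bases before to 50 bases after the annotated start in RefSeq (GRCm38.p6), written 5′ to 3′ on the gene's own strand, with every CpG in capitals. Cdkn2a is shown at both of its starts in the table.
Hoxd13, chr2:74667975-74668274, plus strand: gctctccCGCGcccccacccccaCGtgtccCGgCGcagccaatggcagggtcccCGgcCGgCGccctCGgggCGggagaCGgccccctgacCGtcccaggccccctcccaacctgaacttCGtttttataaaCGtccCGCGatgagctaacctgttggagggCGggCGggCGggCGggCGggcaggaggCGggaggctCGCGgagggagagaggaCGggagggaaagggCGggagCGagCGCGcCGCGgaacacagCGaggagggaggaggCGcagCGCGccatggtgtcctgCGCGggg
Hoxa13, chr6:52260831-52261130, minus strand: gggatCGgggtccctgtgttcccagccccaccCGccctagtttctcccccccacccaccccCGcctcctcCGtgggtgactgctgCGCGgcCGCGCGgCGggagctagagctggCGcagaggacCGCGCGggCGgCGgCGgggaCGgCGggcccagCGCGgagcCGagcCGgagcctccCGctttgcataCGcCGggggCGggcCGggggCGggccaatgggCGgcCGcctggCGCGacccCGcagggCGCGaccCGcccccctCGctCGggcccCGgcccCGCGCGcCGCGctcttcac
Cdkn2a, chr4:89294570-89294869, minus strand: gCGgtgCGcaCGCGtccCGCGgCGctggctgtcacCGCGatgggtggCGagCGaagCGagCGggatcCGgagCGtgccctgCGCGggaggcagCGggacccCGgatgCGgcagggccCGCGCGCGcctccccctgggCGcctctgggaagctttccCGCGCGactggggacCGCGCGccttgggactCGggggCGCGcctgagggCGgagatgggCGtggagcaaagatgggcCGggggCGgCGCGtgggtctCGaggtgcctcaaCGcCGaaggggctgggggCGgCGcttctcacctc
Cdkn2a, chr4:89282143-89282442, minus strand: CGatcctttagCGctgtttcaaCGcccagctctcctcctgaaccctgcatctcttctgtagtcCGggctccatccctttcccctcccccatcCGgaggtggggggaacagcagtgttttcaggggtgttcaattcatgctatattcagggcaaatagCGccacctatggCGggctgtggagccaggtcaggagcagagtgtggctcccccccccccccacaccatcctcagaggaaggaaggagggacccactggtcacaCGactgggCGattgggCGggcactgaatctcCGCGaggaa
S100a9, chr3:90695672-90695971, minus strand: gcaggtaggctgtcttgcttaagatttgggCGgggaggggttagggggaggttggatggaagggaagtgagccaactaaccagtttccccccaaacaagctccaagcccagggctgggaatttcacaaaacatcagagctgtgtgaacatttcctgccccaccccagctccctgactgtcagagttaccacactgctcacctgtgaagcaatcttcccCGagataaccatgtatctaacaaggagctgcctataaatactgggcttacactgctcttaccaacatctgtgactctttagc
Stfa1, chr16:36276898-36277197, plus strand: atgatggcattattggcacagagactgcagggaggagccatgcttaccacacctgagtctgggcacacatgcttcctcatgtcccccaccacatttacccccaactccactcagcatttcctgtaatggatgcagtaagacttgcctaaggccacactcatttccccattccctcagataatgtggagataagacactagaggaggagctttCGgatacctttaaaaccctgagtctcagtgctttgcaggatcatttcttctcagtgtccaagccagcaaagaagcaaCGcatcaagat
Hoxd13 held 37 CpG in these 300 bases, Hoxa13 45, and Cdkn2a 45 at chr4:89294570-89294869 and 12 at chr4:89282143-89282442. S100a9 and Stfa1 held 2 each. CpG is its own reverse complement, so the count is the same on both strands. Among all 32851 promoters of the table the median was 7 CpG, 11.7% held 30 or more and 23.3% held 2 or fewer. CpG content over all called genes was not compared. A promoter was available for 74.5% of the genes called higher, 77.8% of those called lower and 79.1% of all genes tested. The genes shown do not stand for all genes that rose or fell, so they give no comparison of the directions. The CpG counts describe the windows only and do not show whether PRC2 or its mark was there.

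Ezh1 fell in the double knockout on every array. Its 1 probe read -4.44, -4.59, -4.57 and -4.62 on the double-knockout arrays, against 0.37, 0.28, -0.30 and -0.17 on the Ezh2-KO arrays. The groups were far apart, with a difference of -4.60 (SE 0.15, limma adjusted p = 3.58e-11), or 24.2-fold lower in the double knockout. The probe stayed well above background on all 4 double-knockout arrays, and where it lies relative to the deletion was not analysed here. Ezh1-het kidneys lay between at -1.13 ± 0.20 (SD, n = 4).

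No Ezh2 probe differed between the groups by the test. Probe A_51_P248067 was far below control in both and averaged -3.09 ± 0.28 in the double knockout and -3.32 ± 0.34 in Ezh2-KO kidneys (SD, n = 4 each), against 0.09 ± 0.43 in controls, and the difference of 0.23 (SE 0.21) had an adjusted p of 0.789 over all probes. The other 4 Ezh2 probes stood closer to control, but each averaged below it in both groups. Their means were -0.43 to -0.11 in the double knockout and -0.29 to -0.12 in Ezh2-KO kidneys, against 0.05 to 0.29 in controls. They differed by -0.14 to 0.05 between the knockout groups. Probe A_55_P2619322 averaged -0.24 in the double knockout, -0.12 in Ezh2-KO kidneys and 0.29 in controls. Only the brightest of the 4 was tested against controls, and it was the closest to them. It was not called, at -0.22 in the double knockout and -0.27 in Ezh2-KO kidneys (limma adjusted p = 0.419 and 0.237). Which part of the transcript each probe reads was not analysed here. Of 12 PRC2 core and accessory subunits tested, Ezh1 was the only 1 that passed the test. None of the 22 PRC1 subunits and none of the 14 demethylases and opposing writers of histone H3 lysine 27 passed the test. Only 0.94% of all genes passed, so no call in lists of this size is near the share of all genes.

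Among 15646 genes tested, 147 (0.94%) differed at an adjusted p under 0.05, 102 higher (0.652%) and 45 lower (0.288%) in the double knockout, and 99 of them by at least 1.5-fold. At an unadjusted p under 0.05 there were 1991. Over every non-control probe on the array, named or not, 238 of 56605 (0.42%) differed, 173 higher and 65 lower. The arrays of the groups did not overlap for 101 of the genes called higher and 44 of those called lower, against 3.1% and 4.47% of all genes tested (7.57% in either direction). The median difference of all genes was -0.04. The gene lists above and below were chosen with earlier results of these data known. Their shares beside those of all genes are therefore a description. Because whole kidneys were measured, fewer or more cells of a type and less or more RNA per cell cannot be told apart.

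Arrays of the Ezh2-KO group stood apart by slide, which bears on what follows. The arrays lay on 2 slides, each with replicates 1 and 2 or 3 and 4 of every genotype. Between its slides the double knockout had 0 genes at an adjusted p under 0.05, whereas Ezh2-KO kidneys had 64 (0.409% of genes tested), 49 of them higher on slide 1. That count of 64 was 8 with median centring, 13 with the processed signals, 13 with the authors' value table and 86 with a variance model with trend and robust fitting. Over the 8 arrays the first principal component held 41.2% of the variance and ran from -26.8 on Ezh2-KO array 1 to 31.1 on Ezh2-KO array 4, while the double-knockout arrays lay between -16.8 and 4.81. The second component (26.7%) kept the groups apart. On both slides the double-knockout arrays occupied row 2 and the Ezh2-KO arrays row 1, so row and genotype cannot be told apart. Probes well above background made up 55.1 to 59.2% on the double-knockout arrays and 58.4 to 63.4% on the Ezh2-KO arrays.

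All 147 called genes differed in the same direction on both slides, as the plot of the slides shows, although they were called on both together. Over all 15646 genes the differences on the slides correlated at 0.04 (Pearson) across genes, which are not independent and share arrays of each slide. Slide 1 alone called 134 genes and slide 2 alone 13. Without Ezh2-KO arrays 1 and 2 the count was 97, and without arrays 3 and 4 it was 393. A test of the difference between slides called Rmst, a long noncoding RNA, and Saa2, an acute-phase protein (0.0128% of genes, named after their values were seen). Rmst differed by -0.90 between double knockout and Ezh2-KO on slide 1 and by 0.70 on slide 2 (adjusted p of the slide difference 0.0012), and Saa2 by -0.20 and 1.19 (adjusted p = 0.0448). The Saa2 call was lost with median centring (adjusted p = 0.277), the processed signals (0.118) and the authors' value table (0.119).

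**Figure D1:**
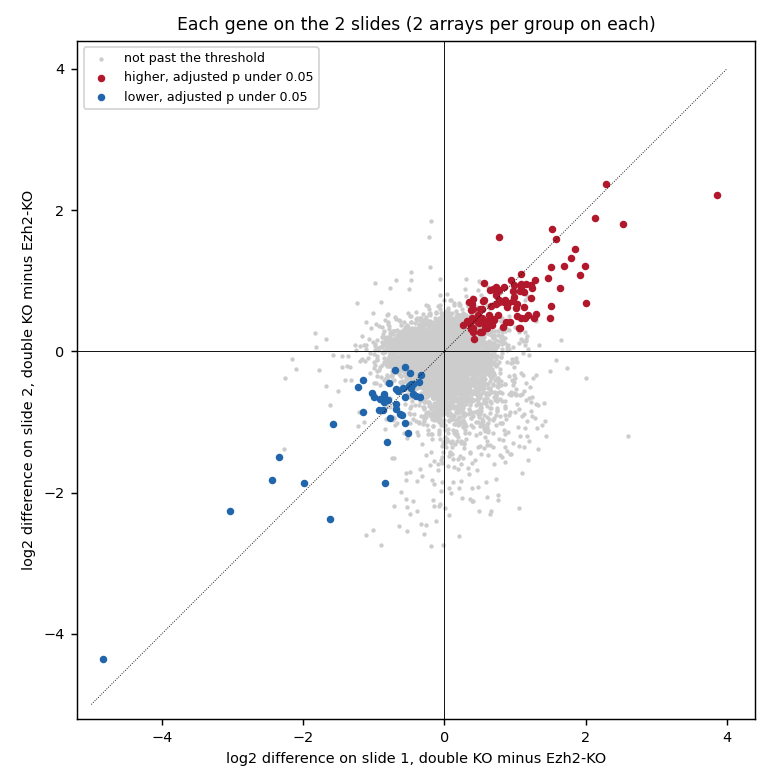
Log2 difference, double knockout minus Ezh2-KO, of each of 15646 genes on slide 1 (horizontal) and slide 2 (vertical), with 2 arrays per group on each slide. The 102 genes called higher (red) and 45 called lower (blue) lie in the quadrants where both slides have the same sign, while the uncalled genes (grey) form a cloud whose 2 axes correlate at 0.04.

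The Hox genes at the far end of the clusters, which pattern the most distal limb and the hindmost trunk, rose as a group. All 4 genes of Hox group 13 were higher in the double knockout (median difference 1.76), against 0.652% of all genes called higher. The group was listed with earlier results of these data known, so the count is a description. One of the 4 passed the filter on dim probes only through double-knockout arrays, and all 4 were also called without that filter. Hoxd13 read 2.41, 2.12, 2.70 and 2.54 in the double knockout, against -0.04, -0.01, 0.20 and 0.32 in Ezh2-KO kidneys, where every array lay near 0. Its difference was 2.33 (SE 0.12, adjusted p = 1.65e-08), and it was 2.29 on slide 1 and 2.36 on slide 2.

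Hoxb13 read 2.86, 2.24, 2.35 and 1.79 in the double knockout, against 0.00, 0.02, 0.30 and 0.23 in Ezh2-KO kidneys, where no array was well above background. It was at least 4.50-fold higher (adjusted p = 2.68e-06). The bound is the smaller of the fitted fold and the fold of the double-knockout Cy5 mean over the lowest level that was well above background (or the dim probe's own where that is higher). The fitted fold was the smaller for each gene given with a bound here, so each such value is the fitted fold. The words at least refer to the dim Ezh2-KO signal and make no allowance for the error of the fit. For Hoxb13 the log2 difference ran from 1.80 to 4.74 over the alternative settings. Without dye swaps the bounds may hold a dye effect. Hoxa13 read 1.57, 1.66, 1.63 and 1.11 in the double knockout, against 0.18, 0.02, 0.31 and 0.05 in Ezh2-KO kidneys (difference 1.35, SE 0.13, adjusted p = 1.36e-05). Hoxc13 was at least 1.74-fold higher (adjusted p = 0.000276). Gm11538, a long noncoding RNA and the tested gene next to Hoxb13 along chromosome 11, averaged 1.60 in the double knockout and -0.05 in Ezh2-KO kidneys (difference 1.65, SE 0.12, adjusted p = 1.47e-06).

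The rest of the Hox clusters gave 1 further call. Hoxc12 was at least 1.76-fold higher (adjusted p = 7.44e-05), as 1 of 8 genes tested in groups 10 to 12. None of the 26 tested genes of groups 1 to 9, many of which the kidney uses, passed the test, near the 0.94% of all genes called. Their median difference was -0.15.

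Transcription factors that direct lineages other than the nephron rose across several families. Every listed gene on the array was first tested without a filter on dim probes. Of 200 lineage factors, Hox genes included, 29 were higher (14.5%) and 0 lower, against 0.441% of all 22911 genes called higher that way. These lists were chosen with earlier results of these data known, so the shares are a description and not an independent test. Of the 161 factors other than Hox genes, 24 were higher (14.9%) and 0 lower. With the filter 26 of 122 factors, Hox genes included, were higher, but 14 of the 122 passed the filter only through double-knockout arrays. In the filtered fit 20 were higher and 1 lower without Ezh2-KO arrays 1 and 2, and 27 were higher and 2 lower without arrays 3 and 4. Counts by family below are those without the filter, and values of single genes are from the filtered fit.

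Of 19 non-renal forkhead factors on the array 5 rose (26.3%). Foxf1, a regulator of visceral mesenchyme, read 1.72, 1.49, 1.83 and 1.67 in the double knockout, against 0.06, -0.02, 0.14 and 0.17 in Ezh2-KO kidneys (difference 1.59, SE 0.09, adjusted p = 1.79e-08). Its lowest double-knockout array was more than 1 log2 unit above the highest Ezh2-KO array. Foxa2 and Foxa1, pioneer factors of the endoderm, were at least 2.22-fold and 1.96-fold higher (adjusted p = 0.000276 and 0.000636), with no Ezh2-KO array well above background.

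Of 17 T-box and Pitx factors 5 rose (29.4%). Pitx1, which specifies the hindlimb, read 1.5, 1.51, 1.79 and 1.09 in the double knockout, against -0.34, -0.23, 0.03 and 0.22 in Ezh2-KO kidneys (difference 1.55, SE 0.20, adjusted p = 0.000481). Tbx15 and Tbx1, which act in the skeleton and the pharyngeal arches, were at least 1.77-fold and 1.63-fold higher.

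Of 58 neural factors 7 rose (12.1%), and of 7 non-renal Pax factors 1 did. Ebf3, a factor of neuronal differentiation, read 2.15, 1.85, 1.95 and 1.88 in the double knockout, against 0.15, 0.46, 0.92 and 0.48 in Ezh2-KO kidneys (difference 1.45, SE 0.16, adjusted p = 6.88e-05), and the groups did not overlap. En2, of the midbrain and hindbrain, read 2.26, 1.71, 2.39 and 1.64 in the double knockout, against -0.20, 0.16, 1.43 and 1.23 in Ezh2-KO kidneys (difference 1.35, SE 0.28, adjusted p = 0.0315). Its level in Ezh2-KO kidneys itself differed between the slides, by -1.35 (adjusted p = 0.0368). The En2 call was lost without double-knockout array 1 (1.26), 2 (1.44) or 3 (1.21) or Ezh2-KO array 1 (1.06) or 2 (1.18). Lhx2 and Isl2, LIM homeodomain factors, were at least 1.73-fold and 1.48-fold higher, and Pax3, of the neural crest and muscle precursors, at least 1.66-fold higher (adjusted p = 0.000462, 0.00142 and 0.00134).

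Limb, craniofacial and muscle factors gave 4 of 35 higher (11.4%), and endoderm or gonad factors 2 of 25 (8%). Prrx1, of limb mesenchyme, averaged 1.49 in the double knockout and 0.53 in Ezh2-KO kidneys (difference 0.96, SE 0.11, adjusted p = 0.00018). A further Prrx1 probe differed by 0.64. Shox2, of the limb and sinus node, was at least 1.97-fold higher (adjusted p = 0.0495), and Msx1, of the limb and face, differed by 0.57 (SE 0.12, adjusted p = 0.0393).

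Nkx2-5, a cardiac factor, was at least 1.76-fold higher (adjusted p = 4.51e-05), and Nkx2-1, of thyroid and lung, differed by 0.45 (SE 0.09, adjusted p = 0.0189). The Shox2 call was lost without any 1 of the 8 arrays (values 0.91 to 1.04). It was also lost without the filter on dim probes (limma adjusted p = 0.0608), so Shox2 is not in the family count above. The Msx1 call was lost without double-knockout array 2 (0.55) or 3 (0.46) or Ezh2-KO array 1 (0.52), 2 (0.55) or 4 (0.60). The Nkx2-1 call was lost without double-knockout array 1 (0.42) or 3 (0.41) or Ezh2-KO array 1 (0.44), 2 (0.45) or 4 (0.42). A further Nkx2-1 probe differed by 0.74 (SE 0.07).

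**Figure D2:**
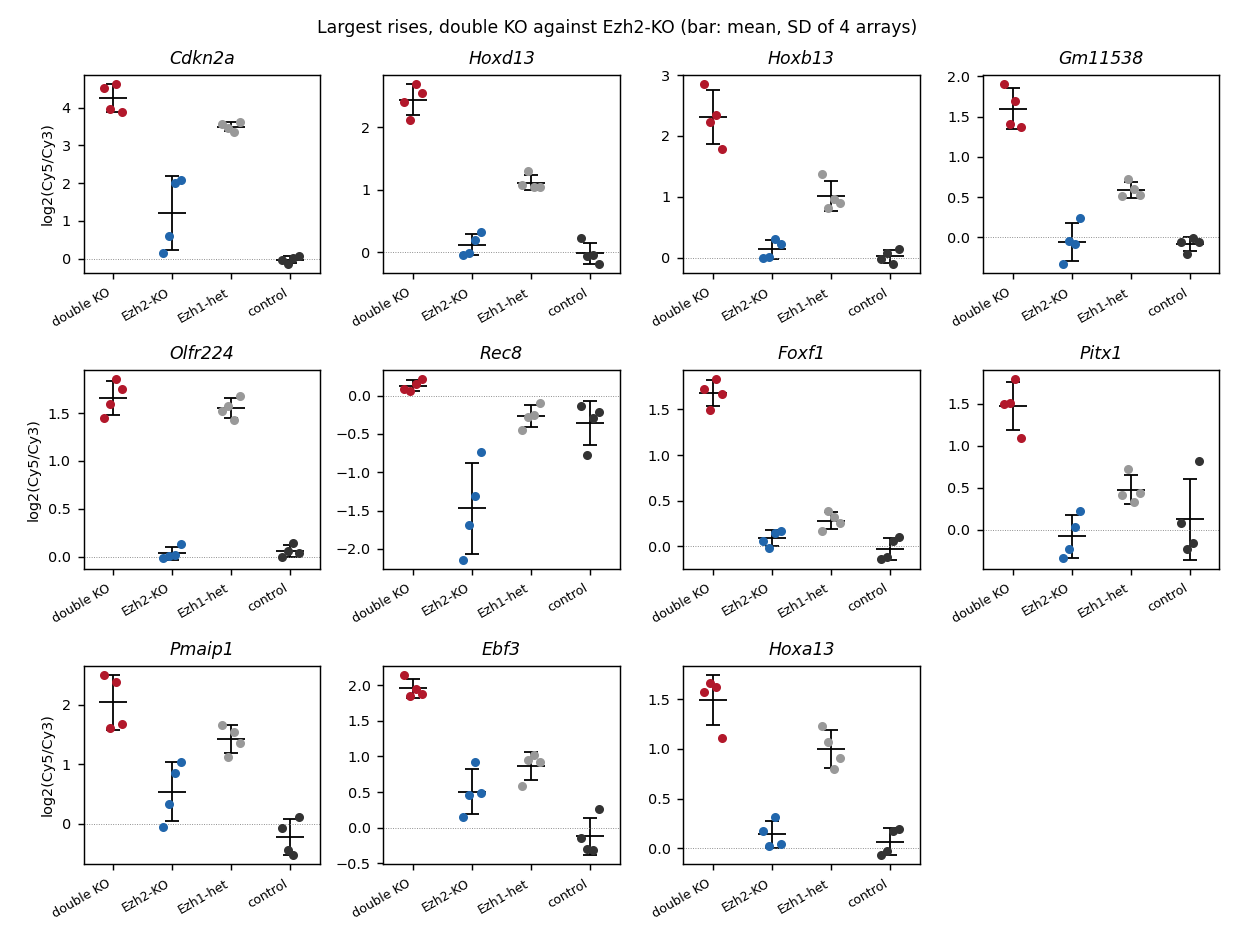
Log2(Cy5/Cy3) on every array for 11 of the 12 genes with the largest rises among called genes whose arrays did not overlap, with double-knockout arrays leftmost, then Ezh2-KO, Ezh1-het and control arrays (points), and the mean with its SD of 4 arrays (bars). Hoxd13 lay between 2.12 and 2.70 in the double knockout and at most at 0.32 in Ezh2-KO kidneys, whereas Cdkn2a split the Ezh2-KO arrays, at 0.15 and 0.61 on slide 1 and 2.01 and 2.08 on slide 2.

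Inhibitors of cyclin-dependent kinases, which hold cells at entry into the cell cycle, rose for 4 of 8 genes (median difference 0.55), against 0.652% of all genes called higher. This list too was chosen with earlier results of these data known. Cdkn2a, which encodes p16Ink4a and p19Arf and is a classical Polycomb target, read 4.51, 3.97, 4.64 and 3.89 in the double knockout, against 0.15, 0.61, 2.01 and 2.08 in Ezh2-KO kidneys. The groups did not overlap and the difference was 3.04 (SE 0.33, adjusted p = 7.44e-05), 3.86 on slide 1 and 2.22 on slide 2. The call was lost with the processed signals (3.65, adjusted p = 0.0555) and with the authors' value table (3.65, adjusted p = 0.0554). Within Ezh2-KO kidneys the level on slide 1 was lower than on slide 2 by 1.66 log2 units (coded slide 1 minus slide 2, -1.66, adjusted p = 0.0143), and in the double knockout the slides differed by -0.03. A further Cdkn2a probe (A_51_P144813) differed by 0.89 (SE 0.11, adjusted p over filtered probes 0.000281), and which transcript each probe reads was not analysed here.

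The neighbouring Cdkn2b, encoding p15Ink4b, read 1.98, 1.38, 2.18 and 1.17 in the double knockout, against 0.08, 0.27, 0.97 and 1.08 in Ezh2-KO kidneys (difference 1.08, SE 0.22, adjusted p = 0.0315), with the same 2 Ezh2-KO arrays low. Its call was lost without double-knockout array 1 (0.98) or 3 (0.91) or Ezh2-KO array 1 (0.90) or 2 (0.97). Cdkn2c, encoding p18Ink4c, read 1.05, 0.94, 1.07 and 0.79 in the double knockout, against -0.15, -0.32, -0.03 and 0.02 in Ezh2-KO kidneys (difference 1.08, SE 0.10, adjusted p = 1.21e-05) and differed alike on the slides, by 1.23 and 0.94. Cdkn1a, encoding p21, differed by 0.88 (SE 0.17, adjusted p = 0.0202), and its call was lost without double-knockout array 1 (0.85), 2 (0.91) or 3 (0.75) or Ezh2-KO array 1 (0.85) or 3 (0.79). Of these 8 genes 2 were called higher without Ezh2-KO arrays 1 and 2 and 5 without arrays 3 and 4. Further probes of Cdkn2b and Cdkn1a differed by 0.89 and 0.31 and did not pass over the filtered probes (adjusted p = 0.107 and 0.244).

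Targets of the tumour suppressor p53 gave 6 of 25 higher and 0 lower, with a median difference of 0.25, against 0.652% of all genes called higher. The p53 list was also chosen with earlier results of these data known. Pmaip1, encoding the pro-apoptotic protein Noxa, read 2.51, 1.62, 2.38 and 1.69 in the double knockout, against -0.05, 0.34, 0.86 and 1.04 in Ezh2-KO kidneys (difference 1.5, SE 0.25, adjusted p = 0.00459). Ccng1, encoding cyclin G1, differed by 1.08 (SE 0.18, adjusted p = 0.00625) and Zmat3, an RNA-binding p53 target, by 0.77 (SE 0.13, adjusted p = 0.00579). The count was 1 without Ezh2-KO arrays 1 and 2 and 5 without arrays 3 and 4. Double-knockout arrays 1 and 3 were the higher 2 for Cdkn2a, Cdkn2b, Pmaip1, Ccng1 and Zmat3. None of 38 genes of proliferation and mitosis passed the test, near the 0.94% of all genes called, and their median difference was 0.03.

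Genes of cells outside the nephron lineage also rose singly. Olfr224, an olfactory receptor gene, read 1.45, 1.59, 1.86 and 1.75 in the double knockout, against -0.02, 0.01, 0.02 and 0.13 in Ezh2-KO kidneys (difference 1.63, SE 0.09, adjusted p = 1.65e-08). Ezh1-het kidneys averaged 1.55, close to the double knockout, unlike for Hoxd13 (1.11). Rec8, a meiotic cohesin subunit, read 0.09, 0.06, 0.15 and 0.22 in the double knockout, against -2.14, -1.69, -1.31 and -0.73 in Ezh2-KO kidneys (difference 1.60, SE 0.22, adjusted p = 0.000697). Controls averaged -0.35, from which the double knockout differed by 0.48 (adjusted p = 0.26) and Ezh2-KO kidneys by -1.11 (adjusted p = 0.012).

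Tdrd1, which acts in the germline piRNA pathway, differed by 0.55 (SE 0.12, adjusted p = 0.0483), and its call was lost without any 1 of the 8 arrays (0.42 to 0.62) and without the filter on dim probes. Without that filter Rec8 was the 1 gene called higher among 29 germline and meiotic genes (3.45%, median difference 0.013), against 0.441% of all genes. Nrn1, encoding the neurite growth protein neuritin, and Esx1, an X-linked homeobox gene of placenta and testis, were at least 1.88-fold and 1.80-fold higher (adjusted p = 6.11e-05 and 0.000456).

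Of all genes, 24 were well above background on all 4 double-knockout arrays and on no Ezh2-KO array, and 20 of these were called. The choice fixes their direction. In the opposite case there were 67 genes, of which 4 were called. The 4 largest differences among these 67, in Stfa3 and Csta2 of the stefin family, Klk1b4, a kallikrein, and Abca13, a transporter, did not pass the test (differences -1.03, -0.86, -0.61 and -0.60, adjusted p = 0.0640, 0.0756, 0.371 and 0.413).

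Ezh1-het kidneys lay between for most of the genes that rose. Over the 102 genes called higher the median level was 0.75 in the double knockout, 0.31 in Ezh1-het kidneys, 0.04 in Ezh2-KO kidneys and 0.02 in controls, and the Ezh1-het mean lay between the other 2 knockout groups for 95. The genes were chosen on the outer groups, so this is a description. Against controls, 85 of the 102 passed the test in the double knockout, where 4.62% of all genes did, and 12 in Ezh2-KO kidneys, where 3.08% of all genes did. These comparisons share the control arrays and reuse the arrays on which the genes were chosen, so these counts too are a description. The median differences from control were 0.75 and 0.02. Of the 45 genes called lower, 11 passed the test against controls in the double knockout and 13 in Ezh2-KO kidneys, with median differences from control of -0.36 and 0.34.

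Lin28b, Bcl11a and Miat stood above control in both groups and did not differ between them by the test. Lin28b, an RNA-binding protein that blocks let-7, read 1.64, 1.53, 1.84 and 1.67 in the double knockout, against 1.47, 1.72, 2.09 and 1.90 in Ezh2-KO kidneys. The groups overlapped (difference -0.13, SE 0.12, adjusted p = 0.678), and both were above control by 1.79 and 1.92 (adjusted p = 1.8e-07 and 4.3e-07). Bcl11a, a zinc-finger repressor, averaged 2.20 in the double knockout and 1.82 in Ezh2-KO kidneys (difference 0.38, SE 0.13, adjusted p = 0.207). Miat, a long noncoding RNA, averaged 1.86 in the double knockout and 1.59 in Ezh2-KO kidneys (difference 0.27, SE 0.29, adjusted p = 0.724), at -0.47 on slide 1 and 1.01 on slide 2.

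Markers of the nephron lineage gave no call, not far from the 0.94% of all genes that were called. None of 125 tested genes in the lists from progenitor to distal tubule passed the test (median difference -0.19), with 0 higher and 1 lower without Ezh2-KO arrays 1 and 2 and 1 higher and 4 lower without arrays 3 and 4. With collecting duct, urothelial and stromal genes included, 1 of 176 kidney marker genes was called higher (0.568%). That gene, Krt19, a keratin of the collecting duct and urothelium, averaged 0.96 in the double knockout and -0.03 in Ezh2-KO kidneys (difference 0.99, SE 0.20, adjusted p = 0.0280). Its call was lost without double-knockout array 1 (0.98), 2 (0.93) or 3 (0.91) or Ezh2-KO array 1 (0.86) or 2 (0.84).

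The progenitor factor Six2 read -0.88, -0.21, -0.54 and 0.08 in the double knockout, against 0.26, 0.31, -0.47 and -0.37 in Ezh2-KO kidneys, and the groups overlapped (difference -0.32, SE 0.26, adjusted p = 0.627). Cited1, which marks the earliest progenitors, was below control in both groups, at -0.92 in the double knockout and -0.72 in Ezh2-KO kidneys (difference -0.20, SE 0.13, adjusted p = 0.548). Wnt4 and Lhx1, which drive the first nephron epithelium, differed by -0.34 (SE 0.16) and -0.20 (SE 0.31), and Wt1, of progenitors and podocytes, by -0.36 (SE 0.15), with adjusted p-values of 0.396, 0.819 and 0.338.

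None of the 31 tested proximal tubule genes passed the test, near the 0.94% of all genes called, with a median difference of -0.62. Their mean level was -0.86, -1.59, -1.08 and -1.92 on the double-knockout arrays, against -1.63, -0.73, -0.64 and 0.16 on the Ezh2-KO arrays, so the groups overlapped. The median was 0.01 on slide 1 and -1.31 on slide 2. The 22 genes of the loop of Henle and distal tubule had a median difference of -0.42, at -0.03 on slide 1 and -1.02 on slide 2, and 0 passed.

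**Figure D3:**
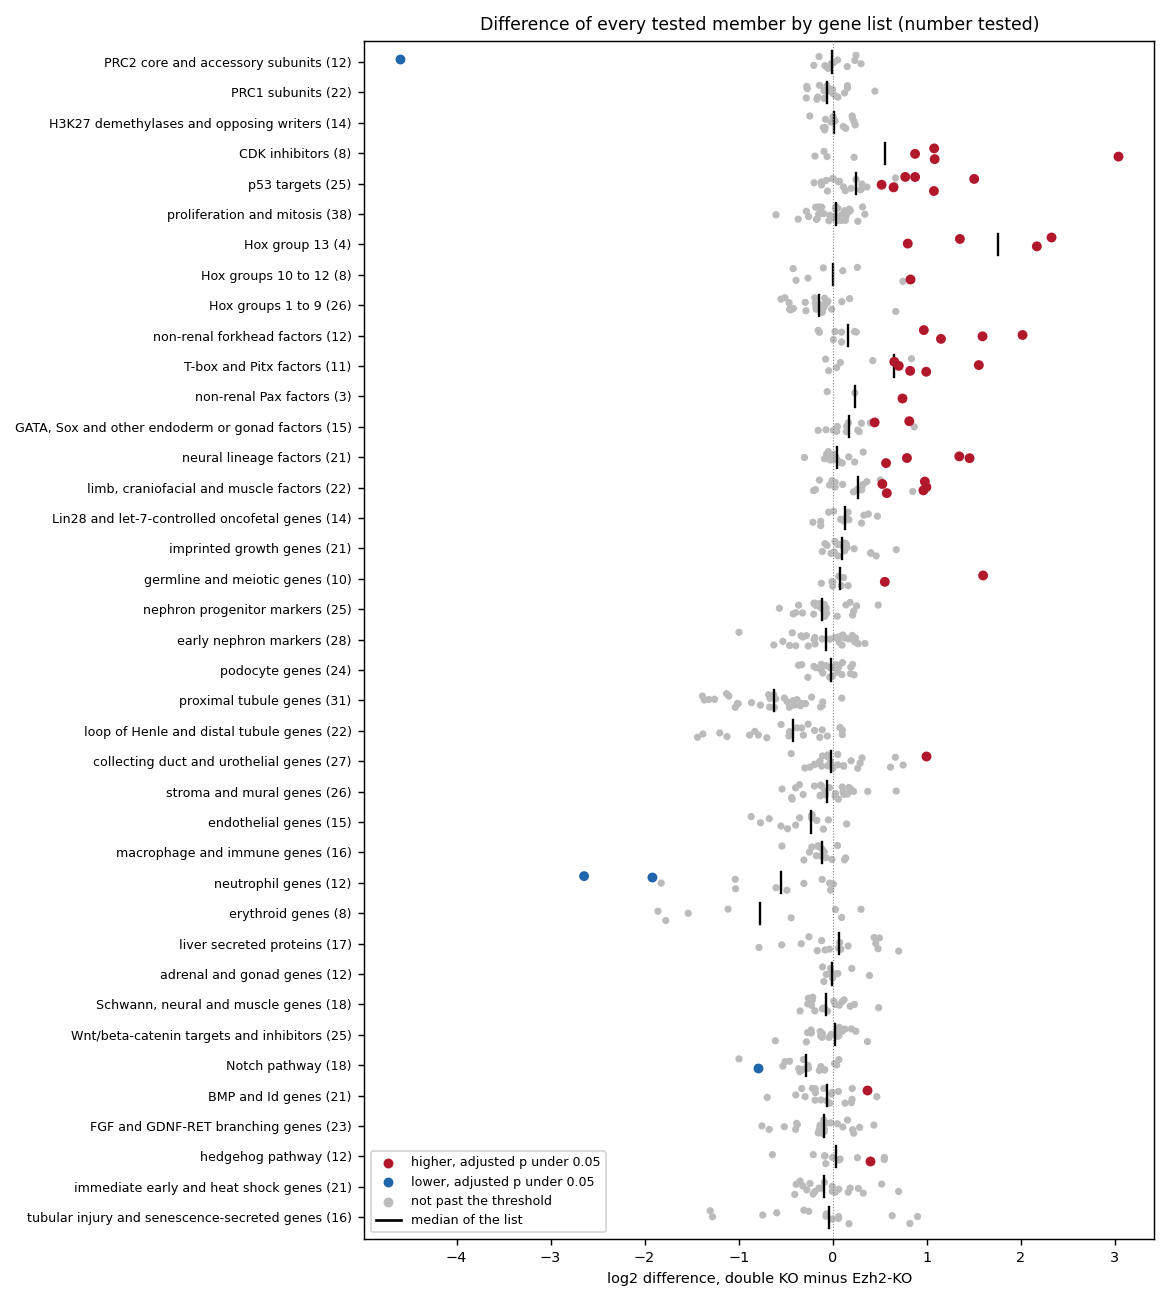
Log2 difference, double knockout minus Ezh2-KO (horizontal), of every tested member of each gene list (rows, with the number tested), called higher in red, called lower in blue and uncalled in grey, with the list's median as a black bar. Rises gather in Hox group 13, the CDK inhibitors, the p53 targets and the lineage factors, and Ezh1 stands alone at -4.60. Only genes that passed the filter on dim probes are plotted. Of the 122 lineage factors tested, 14 passed it only through double-knockout arrays.

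Signalling pathway lists of kidney development gave 0 or 1 call each, against 0.94% of all genes called. The shares were 5.56% for the Notch pathway, 4.76% for BMP and Id genes and 8.33% for hedgehog genes, each from 1 gene. Of 25 tested Wnt/beta-catenin targets and inhibitors 0 passed, and of 23 FGF and GDNF-RET branching genes 0 passed. Rfng, a fringe enzyme that modifies Notch receptors, was the only 1 of 18 Notch pathway genes called, with a level of -0.90 in the double knockout and -0.11 in Ezh2-KO kidneys (difference -0.79, SE 0.12, adjusted p = 0.0016). Grem1, a secreted BMP antagonist, and Hhip, a hedgehog-binding inhibitor, were the single calls among 21 BMP and Id genes and 12 hedgehog genes, at 0.37 (SE 0.08, adjusted p = 0.0483) and 0.40 (SE 0.09, adjusted p = 0.0441). The Grem1 call was lost without double-knockout array 1 (0.37), 2 (0.36) or 3 (0.30) or Ezh2-KO array 1 (0.35), 2 (0.36) or 3 (0.34). The Hhip call was lost without any 1 of 7 arrays (0.33 to 0.42), and held only without double-knockout array 4. A further Hhip probe differed by 0.25 and did not pass (adjusted p over filtered probes 0.424).

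Among the falls, genes of neutrophils had levels that varied among the Ezh2-KO arrays. S100a9, a subunit of calprotectin, read 0.18, -0.87, -0.97 and -1.29 in the double knockout, against 3.77, 1.60, 1.96 and 0.31 in Ezh2-KO kidneys (difference -2.64, SE 0.55, adjusted p = 0.0326). The groups did not overlap, with Ezh2-KO array 1 highest and array 4 near the double knockout. Cstdc5 and Stfa1, cystatins of the stefin A family expressed in granulocytes, differed by -2.13 (SE 0.42, adjusted p = 0.0202) and -1.92 (SE 0.41, adjusted p = 0.0350), and near-identical family members can share signal. For S100a9, Cstdc5 and Stfa1 the double knockout differed from control by -0.20, -0.03 and 0.02 (none called), and Ezh2-KO kidneys by 2.44, 2.10 and 1.94 (adjusted p = 0.027, 0.014 and 0.018).

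Of 12 neutrophil genes tested 2 were lower, S100a9 and Stfa1, with a list median of -0.55, against 0.288% of all genes called lower. The list's mean level was -0.20 to 0.09 on the double-knockout arrays and 0.10 to 1.5 on the Ezh2-KO arrays, and the part of these cells in the result was not tested. Without Ezh2-KO arrays 1 and 2 none of the 12 was lower, and without arrays 3 and 4 there were 7. The S100a9 call was lost without any 1 of 6 arrays (-2.75 to -2.02), namely double-knockout arrays 2, 3 and 4 and Ezh2-KO arrays 1, 2 and 3. The Cstdc5 call was lost without double-knockout array 2 (-2.16), 3 (-2.04) or 4 (-2.05) or Ezh2-KO array 3 (-2.09). The Stfa1 call was lost without double-knockout array 2 (-1.86), 3 (-1.90) or 4 (-1.85) or Ezh2-KO array 2 (-2.06) or 3 (-1.86).

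None of the 15 tested genes of the endothelial list passed the test (median difference -0.23), near the 0.94% of all genes called. There were 3 lower without Ezh2-KO arrays 1 and 2 and 0 without arrays 3 and 4. The list's mean level was -0.42 to -0.23 on the double-knockout arrays and -0.30 to 0.40 on the Ezh2-KO arrays. Outside that list, Fabp4, a fatty-acid binding protein of capillaries and adipocytes, read -1.67, -2.34, -1.72 and -2.68 in the double knockout, against -0.44, -0.32, 0.55 and -0.19 in Ezh2-KO kidneys (difference -2.002, SE 0.26, adjusted p = 0.000481). The groups were more than 1 log2 unit apart, and controls averaged -0.59. A further Fabp4 probe differed by -0.89 (adjusted p over filtered probes 0.0198).

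Icam2, an endothelial adhesion molecule, read -1.09, -1.13, -0.94 and -1.46 in the double knockout, against -0.47, -0.07, 1.10 and 0.24 in Ezh2-KO kidneys (difference -1.35, SE 0.27, adjusted p = 0.0202). Its call was lost without double-knockout array 1 (-1.38), 2 (-1.36) or 4 (-1.25). Cd34, Plxnd1 and Bcl6b, which endothelial cells also express, were picked after their values were seen and differed by -0.85, -0.79 and -0.75 (adjusted p = 0.0113, 0.00766 and 0.0137). The Bcl6b call was lost without double-knockout array 1 (-0.68). A further Plxnd1 probe differed by -0.39 and did not pass over the filtered probes (adjusted p = 0.16).

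Of 98 tested marker genes of cells other than the nephron's, in lists from endothelial to nerve and muscle genes, the 2 neutrophil genes were the only calls. They made up 2.04%, against 0.288% of all genes called lower. The 8 erythroid genes tested had a median difference of -0.78 with a mean level of -1.43 to -0.03 on the double-knockout arrays and -0.05 to 0.52 on the Ezh2-KO arrays, and 0 passed.

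Further falls had no common list. Mgat4a, a glycosyltransferase, averaged -0.71 in the double knockout and 0.16 in Ezh2-KO kidneys (difference -0.87, SE 0.15, adjusted p = 0.00707). A further Mgat4a probe differed by -0.12 and did not pass (adjusted p over filtered probes 0.64). Serpina6, which encodes corticosteroid-binding globulin, differed by -1.30 (SE 0.29, adjusted p = 0.0436), Mcemp1, a membrane protein of mast cells, by -1.04 (SE 0.23, adjusted p = 0.0393) and Cish, an inhibitor of cytokine signalling, by -1.01 (SE 0.21, adjusted p = 0.0302). The Serpina6 call was lost without any 1 of 7 arrays (-1.41 to -1.18) and held only without Ezh2-KO array 3. The Mcemp1 call was lost without double-knockout array 2 (-0.94) or 3 (-0.92) or Ezh2-KO array 1 (-1.02), 3 (-1.02) or 4 (-0.92). The Cish call was lost without double-knockout array 2 (-0.94) or 4 (-0.87) or Ezh2-KO array 1 (-0.90), 2 (-0.97) or 4 (-0.98).

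**Figure D4:**
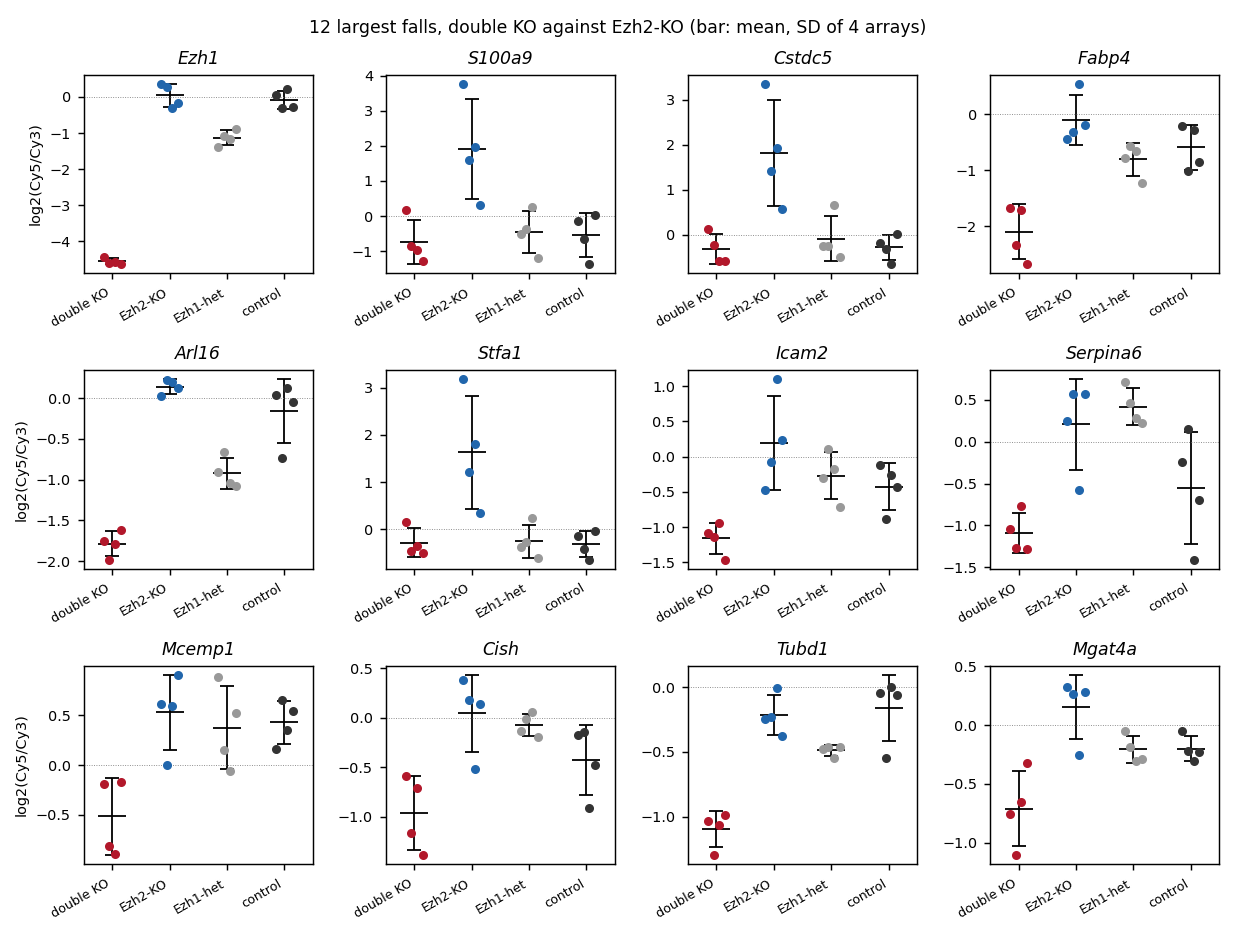
Log2(Cy5/Cy3) on every array for the 12 genes with the largest falls among called genes whose arrays did not overlap, with double-knockout arrays leftmost, then Ezh2-KO, Ezh1-het and control arrays (points), and the mean with its SD of 4 arrays (bars). Ezh1 and Arl16 have tight groups, while S100a9, Cstdc5 and Stfa1 share the same order of Ezh2-KO arrays, array 1 highest and array 4 lowest.

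Ezh1 lies on chromosome 11, which held 10 of the 45 genes called lower, Ezh1 itself among them. Of the 15646 genes tested, 1302 lie on that chromosome, and 0.288% of all genes were called lower. Chromosome 12 held 5 genes called lower among 540 tested. Arl16, a small GTPase of the ARF family, read -1.75, -1.98, -1.79 and -1.62 in the double knockout, against 0.03, 0.22, 0.19 and 0.12 in Ezh2-KO kidneys (difference -1.93, SE 0.15, adjusted p = 2.52e-06). The groups were tight and far apart, and Ezh1-het kidneys averaged -0.92. A further probe differed by -1.88 (adjusted p over filtered probes 1.45e-07). Tubd1, encoding the centriole protein delta-tubulin, read -1.04, -1.30, -1.06 and -0.99 in the double knockout, against -0.24, -0.23, 0.00 and -0.37 in Ezh2-KO kidneys (difference -0.88, SE 0.11, adjusted p = 0.000481).

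Distance from Ezh1 in bases was not measured. Counted in tested genes along the chromosome in RefSeq order, with Ezh1 at 0, Arl16 lay at 276, Rfng at 298 and Tubd1 at -236. Cbr2, called higher, and Ccdc57, called lower, lay at 297 and 302. Whether the place of these genes on the chromosome of Ezh1 has a part in their calls was not tested. The 5 tested genes on each side of Ezh1 included none that passed the test, with differences from -0.48 in Ramp2, a receptor-activity modifying protein (adjusted p = 0.115), to 0.14. In all, 24 of the 1302 tested genes of the chromosome were called (1.84%), 14 higher and 10 lower, against 0.94% of all genes. Chromosome 12 had 2.41% called, 8 higher and 5 lower, and chromosome 13 had 2.25%, 11 higher and 2 lower.

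**Figure D5:**
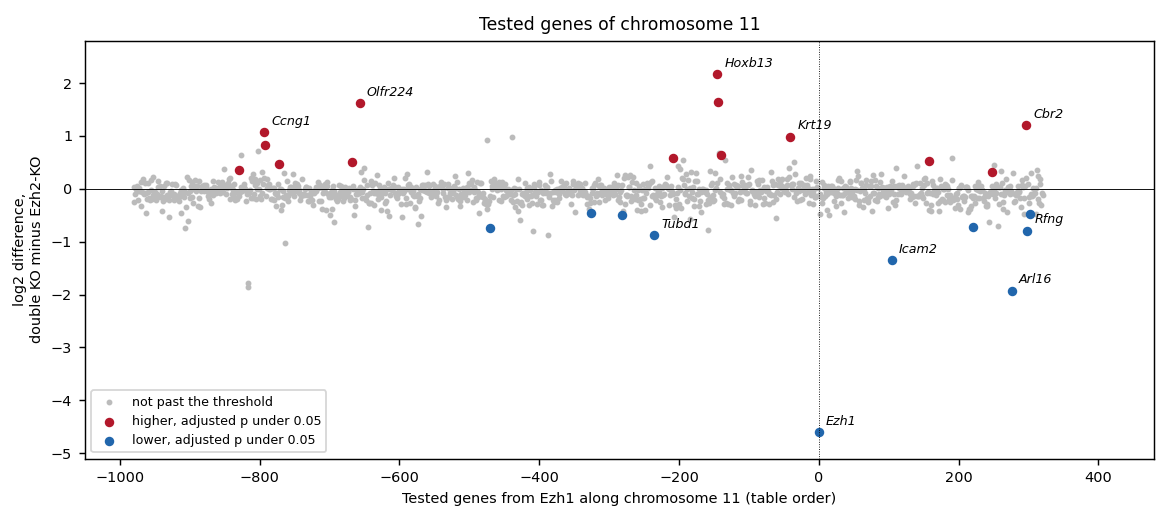
Log2 difference, double knockout minus Ezh2-KO (vertical), of the tested genes of chromosome 11 by their place relative to Ezh1, counted in tested genes (horizontal), called higher in red, called lower in blue and uncalled in grey. Ezh1 stands at -4.60 with uncalled neighbours, and Arl16 at -1.93 lies 276 genes away.

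Linker and core histone genes, a list matched by symbol after values were seen, gave 9 of 47 higher and 0 lower, against 0.652% of all genes called higher, with a median difference of 0.34. Their mean level was 0.21 to 0.58 on the double-knockout arrays and -0.07 to 0.31 on the Ezh2-KO arrays, against 0.22 to 0.43 on the control arrays. H1f2, a linker histone, read 0.85, 1.04, 0.45 and 0.36 in the double knockout, against -0.53, -0.19, 0.10 and -0.36 in Ezh2-KO kidneys (difference 0.92, SE 0.18, adjusted p = 0.0191), and H3c11, a core histone, differed by 0.77 (SE 0.12, adjusted p = 0.00208). The median was 0.65 on slide 1 and 0.13 on slide 2. Without Ezh2-KO arrays 1 and 2 none of the 47 was called higher, and without arrays 3 and 4 there were 13. H1f2 differed from control by 0.22 in the double knockout (adjusted p = 0.58) and by -0.70 in Ezh2-KO kidneys (adjusted p = 0.046). The H1f2 call was lost without double-knockout array 1 (0.86) or 2 (0.80) or Ezh2-KO array 1 (0.83) or 2 (0.94). Many core histone genes are near-identical copies, so 1 probe can carry signal of several.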

How the data were processed

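Per the file headers, the deposited intensities were written by Agilent Feature Extraction (10.7.3.1, also in the submitters' processing notes) as median spot and background intensities and as processed intensities. The authors' value table holds the log10 ratio of processed Cy5 over Cy3, rounded by at most 0.005, with a median of 0 on every array, so its scale, centring and direction are known. Genome builds beyond the array grid's are not given in the sources used here.

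Intensities were background-corrected with normexp (offset 50) and loess-normalised within arrays, with control spots at weight 0 and flagged spots left out, in limma 3.58.1 (R 4.3.3), as log2(Cy5/Cy3). A probe was kept if at least 4 of the 16 arrays had it well above background in Cy5 (34731 of 56605), and the brightest probe stood for each RefSeq-named gene. Among the non-control probes, 32994 had 1 symbol and 23611 none. All 16 arrays entered 1 limma fit (lmFit, eBayes) with Benjamini-Hochberg adjustment at 0.05, which was tested on simulated data. The p-values cover only the spread among the arrays of a genotype, which may be partly technical.

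Named genes were Ezh1 and Ezh2, the 12 largest rises and 12 largest falls among called genes without overlap, up to 4 called members per list, fixed regulators, Ezh1's neighbours and probes above background in 1 group only, and some of them are not reported here. The comparison, its members and its lists were chosen with earlier results of these data known. The alternatives were other background corrections, normalisations, filters, variance models, blocks and left-out arrays.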

Additional observations from a re-analysis of the deposited data

Results flagged for a closer look

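Among 142 checks of 4 arrays of 1 genotype for a named gene, 5 found an array far from the other 3, and chance flags about 1 in 20. Hoxa13 read 1.11 on double-knockout array 4, against 1.57 to 1.66 on the other double-knockout arrays. Tbx1 read 0.756 on double-knockout array 3, against 0.47 to 0.50 on the others of that group. Lhx2 read 1.04 on double-knockout array 3, against 0.51 to 0.59 on the others. Mgat4a read -0.25 on Ezh2-KO array 3, against 0.27 to 0.33 on the other Ezh2-KO arrays. Cd34 read 0.64 on Ezh2-KO array 3, against 0.05 to 0.15 on the others of that group.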

How the results depend on the processing

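The count of 147 genes was 66 with only the 8 arrays of the 2 groups fitted, 13 within slide 2 alone, 2881 with array weights, and 84 to 142 when each array was left out in turn, with 84 without Ezh2-KO array 2, 87 without double-knockout array 2 and 91 without double-knockout array 3. Leaving out Ezh2-KO arrays 1 and 2 gave 97 genes and leaving out arrays 3 and 4 gave 393, alternatives that were chosen after seeing the data. The share called higher was 69.4%, with 50.7% within slide 1, 42.4% with array weights, 53.6% without Ezh2-KO arrays 1 and 2 and 41.7% without arrays 3 and 4. The other settings gave 114 to 171 genes. The slide difference gave 2 genes, and 1 with the processed signals and 1 with the authors' value table. The deviations of same-numbered arrays from their group means correlated at -0.27, 0.02, 0.26 and -0.35. Arrays of unlike number reached -0.46 and 0.47, so these values cannot tell whether the numbers pair arrays. With the replicate number as a block 122 genes were called. With slide as a block 156 were called. Of 55 called genes named, 36 kept their call without each array in turn, and 7 (Ezh1, Hoxd13, Hoxb13, Gm11538, Olfr224, Foxf1 and Arl16) kept it in all 25 alternatives. None of the 55 reversed its direction. The processed signals and the authors' value table each lost the calls of 9 genes, Cdkn2a, Cdkn2b, Shox2, Tdrd1, Grem1, S100a9, Stfa1, Serpina6 and Mcemp1. Median centring lost Zmat3, Rfng, Mgat4a, Cd34 and Plxnd1, and the fit of only the 8 arrays lost 24.

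Genes without a call changed sign as follows, and the cause was not tested. Ezh2 (brightest probe, 0.05) was -0.0089 with the mean of its probes, -0.039 with array weights, -0.045 without Ezh2-KO arrays 3 and 4, and between -0.042 (without double-knockout array 2) and 0.099 with 1 array left out. Lin28b was 0.22 with the processed signals and with the authors' value table, 0.013 with the mean of its probes, 0.039 with array weights and 0.073 without Ezh2-KO arrays 3 and 4. Miat was -0.47 within slide 1, -0.12 with array weights and -0.33 without Ezh2-KO arrays 3 and 4, and Lhx1 was 0.15, 0.0097 and 0.074 under the same changes. Within slide 2, Six2 was 0.19, Wnt4 0.035 and Wt1 0.019, and without Ezh2-KO arrays 1 and 2 Six2 was 0.034. Rmst, at -0.10 over all arrays, was 0.70 within slide 2, 0.0895 with the processed signals, 0.0906 with the authors' value table, 0.12 without Ezh2-KO array 1, 0.14 without array 2 and 0.60 without both. Saa2, at 0.50 over all arrays, was -0.20 within slide 1 and -0.17 without Ezh2-KO arrays 3 and 4. The number of arrays, 4 per group, limits the precision.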
